A study of Gallus gallus with 12 samples.

Results

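SLCO1C1, DIO2 and DIO3 encode a carrier of thyroid hormone and the pair of enzymes that activate and inactivate it. They were followed across the chick pineal gland as all probe sets that the platform annotation assigned to these 3 genes alone, of 13009 genes with a probe set of their own. There were 8 such probe sets, 5 for SLCO1C1, 2 for DIO2 and 1 for DIO3, of 38535 on the array. A probe set is the group of short oligonucleotides that together report one transcript. All 8 passed the filter on low values (mean log2 intensity above 3.73 over all arrays), as did 23063 of the 38439 probe sets that were not controls.

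The pineal gland of birds responds directly to light, keeps circadian time and secretes melatonin. Male chicks of 8 days, strain not stated, were reared for 7 days under 12 h of light per day, then spent 1 day in constant darkness. The light groups received light for 1 h from circadian time (CT) 6, within the subjective day, or from CT14 or CT22, early and late in the subjective night, and the dark groups of the same times received none. RNA of 6 glands, collected when the pulse ended, was hybridised to 1 Affymetrix array per sample, with 2 biological samples in each of the 6 groups, CT6 light, CT6 dark, CT14 light, CT14 dark, CT22 light and CT22 dark.

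The thyroid secretes mostly thyroxine (T4), which has to lose an iodine atom before it binds its nuclear receptors with high affinity. DIO2 removes iodine from the outer ring and yields the active triiodothyronine (T3), whereas DIO3 removes it from the inner ring and yields inactive products. SLCO1C1 (OATP1C1) takes up T4 at the blood-brain barrier and the choroid plexus of mammals. In the mediobasal hypothalamus of quail and other seasonal breeders, long days raise DIO2 and lower DIO3, which sets local T3. The same enzymes in the pineal gland bear on the question the design puts, how glands answer light at different circadian times.

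Array medians of the deposited intensity lay between 20.1 and 28.9, and arrays were quantile normalized. Replicate arrays correlated with r of 0.964 to 0.975 over the probe sets tested. Of 12 pinealocyte marker genes listed, 9 were on the array and all 9 passed the filter. Their summed intensity was 22719 and 23950 in CT6 light, against 23131 and 23404 in CT6 dark, 22815 and 23717 in CT14 light, against 21238 and 21832 in CT14 dark, and 20312 and 21564 in CT22 light, against 22994 and 24078 in CT22 dark. The sum was thus separate between light and dark at CT14, light higher, and at CT22, light lower. Of single probe sets tested, 22.1% were separate and higher in light at CT14, and 24.7% separate and lower at CT22. TPH1 and ASMT were the brightest of the 9, with mean log2 intensities of 13.2 and 12.7. At CT14, RBP3 was called (1.17, adjusted p = 0.00885), 1 of 9 where 1.14% of all tested were called higher. At CT22, AANAT (-0.83, adjusted p = 0.000556) and PDC (-0.44, adjusted p = 0.0117) were called, 2 of 9 where 1.92% were called lower. In the dark, 1 of the 9 was called higher at CT22 than at CT6, AANAT (1.39, adjusted p = 1.41e-05). Another 1 was called lower, OPNP (-0.39, adjusted p = 0.0457). Of all tested, 0.603% and 0.503% were called higher and lower there. For CT14 minus CT6 in the dark, 1 was called higher, AANAT (0.61, adjusted p = 0.00473), where 1.34% of all tested were. Called lower were 3, ASMT (-0.28), RBP3 (-1.07) and OPNP (-0.54). For CT22 minus CT14, 3 were called higher, AANAT (0.77), ASMT (0.32) and RBP3 (1.64), and 0 lower, where 3.27% were lower. Shares of all tested lower at CT14 than CT6, and higher at CT22 than CT14, are not given here. A measure of RNA integrity, actin signal at the 3-prime end over that at the 5-prime end, was 3.28 and 3.09 on the CT14 light arrays, against 4.67 and 3.95 on the CT14 dark arrays, and 3.62 to 4.23 on the other 8. Light arrays at CT14 therefore had the lowest ratios of the set. Differences are log2 light minus dark with the standard error (SE) of a limma fit and its p-value adjusted over all 23063 probe sets by the Benjamini-Hochberg method, with a threshold of 0.05. The median of these differences over all probe sets tested was 0.00 at CT6, 0.00 at CT14 and -0.01 at CT22. The spread behind each p-value was pooled over the 6 groups, 2 samples each, and drawn toward a trend over all probe sets tested. No spread beyond these samples was measured.

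Light effects on the 3 genes were set side by side, and no difference between genes was tested. At CT14, SLCO1C1 and DIO3 were lower in light than in dark glands, 3.22-fold and 7.91-fold, and DIO2 was 1.43-fold higher. At CT22, DIO2 was 1.61-fold and SLCO1C1 1.60-fold higher in light, while DIO3 did not pass. At CT6 none of the 8 probe sets passed in the limma fit, where 0.221% of all probe sets tested did. At an unadjusted p under 0.05 there were 5 of the 8. No share over all probe sets was counted for unadjusted p-values, here or below, so those counts have no background. At CT14, 1 of the 8 was called higher and 4 lower, against 1.14% and 0.529% of all tested. The higher was 1 DIO2 set, and the lower were 3 SLCO1C1 sets and DIO3. At CT22, 3 were called higher and 0 lower (5 of the 8 were at an unadjusted p under 0.05), against 1.73% and 1.92%. Those were 2 SLCO1C1 sets and 1 DIO2 set. The SLCO1C1 sets share a transcript, and the 3 genes were chosen with earlier results of these data known. Counts of the 8, here and below, are therefore a description. Light and dark arrays did not overlap for 7 of the 8 at CT6, 1 higher and 6 lower, where 20.9% and 20% of all tested did so. They did not overlap for all 8 at CT14, 2 higher and 6 lower, against 22.1% and 21.5%, and for 6 at CT22, all higher, against 23.2% and 24.7%. In whole glands, fewer cells of a type and less RNA per cell cannot be told apart.

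**Figure D1:**
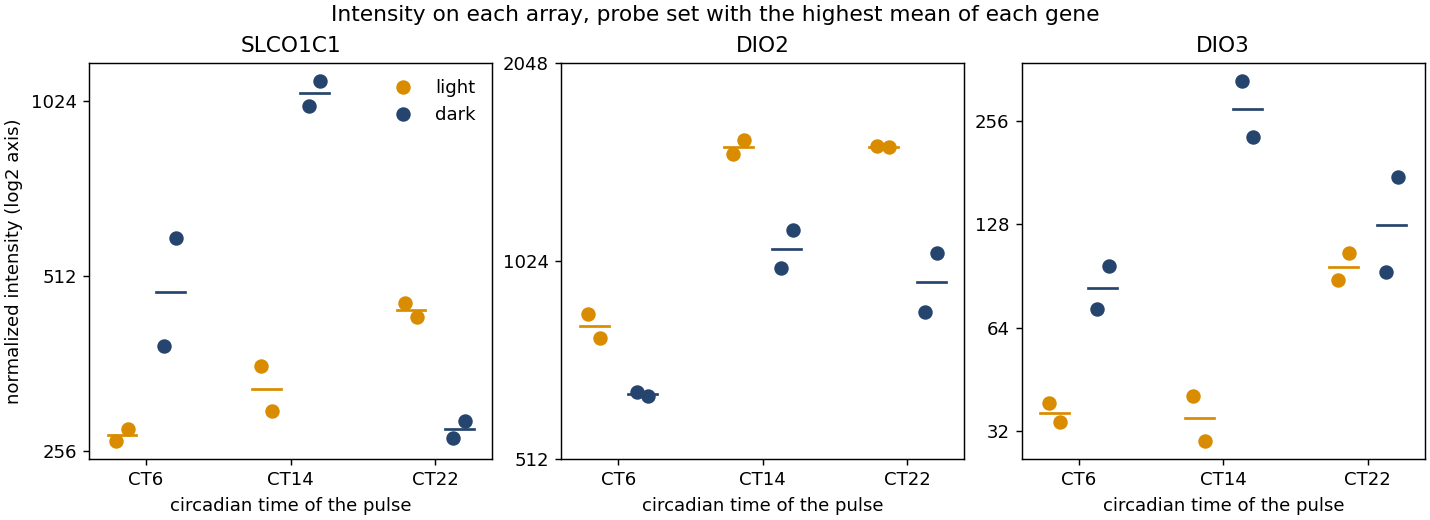
Normalized intensity (log2 axis, a range of its own in each panel) on each of the 12 arrays for the probe set with the highest mean of SLCO1C1, DIO2 and DIO3, by circadian time of the pulse. Orange points are light arrays, blue points dark arrays and lines the mean log2 value of each group of 2. DIO2 points of light arrays lie above those of dark arrays at all 3 times (the CT6 difference did not pass), DIO3 is highest in CT14 dark glands, and SLCO1C1 changes its order between CT14 and CT22.

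SLCO1C1, the T4 carrier, was high in dark glands at CT14 and low in light glands at the same time. Its probe sets are numbered here from 1 to 5 by their mean over all arrays. The first had normalized intensities of 267 and 279.7 in CT6 light glands, against 387 and 595 in CT6 dark glands. At CT14 it had 358 and 299.9 in light, against 1003.5 and 1106 in dark. At CT22 it had 459 and 434 in light, against 269.8 and 289 in dark. Light and dark arrays did not overlap at any time. Light was the lower group at CT6 and CT14 and the higher group at CT22.

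The light effect on SLCO1C1 was -0.81 ± 0.16 at CT6 (adjusted p = 0.0533), -1.69 ± 0.16 at CT14 (adjusted p = 4.48e-05) and 0.68 ± 0.16 at CT22 (adjusted p = 0.0301). The CT6 value passed without the first CT6 dark array (-1.12, adjusted p = 0.00227), which is the lower of the 2 arrays of that group. The CT22 call was lost when any 1 of the 4 arrays of CT22 was left out, with values of 0.63 to 0.73 and adjusted p of 0.102 to 0.194. The CT14 call was kept without each of the 12 arrays, with values of -1.81 to -1.56.

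The dependence on time was tested directly, and the F test over the 3 times gave an adjusted p of 0.000558. The effect at CT22 minus that at CT14 was 2.36 ± 0.22 (adjusted p = 0.000288), with 2.26% of all probe sets passing this comparison. The effect at CT22 minus that at CT6 was 1.49 ± 0.22 (adjusted p = 0.0139), with 0.247% passing. The effect at CT14 minus that at CT6, -0.87 ± 0.22, did not pass (adjusted p = 0.188), with 0.113% passing, but did without the second CT6 dark array (-1.18, adjusted p = 0.0146). The first of these was kept without each of the 12 arrays. The comparison with CT6 was lost without either CT6 light array or without the first CT22 dark array (adjusted p of 0.0549 to 0.0655).

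The other SLCO1C1 probe sets moved with the first at CT14. Set 2 had 369 and 273 in CT14 light glands, against 969.9 and 908 in CT14 dark glands, a light effect of -1.57 ± 0.16 (adjusted p = 0.000133). Set 3 had 104 and 85.7 in CT14 light glands, against 312 and 317 in CT14 dark glands, a light effect of -1.74 ± 0.21 (adjusted p = 0.000599). Sets 4 and 5, with mean log2 intensities of 4.48 and 4.09 near the filter limit, gave -1.65 ± 0.42 (adjusted p = 0.0708) and -1.43 ± 0.39 (adjusted p = 0.0969). All 5 were thus negative, and 3 passed. With the actin ratio as a covariate, sets 1, 2 and 3 lost this call (-1.56, -1.14 and -1.51, adjusted p of 0.167, 0.422 and 0.516).

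At CT22 the probe sets were less alike. Set 2 had 433 and 489.6 in light, against 304 and 244 in dark, a difference of 0.76 ± 0.16 (adjusted p = 0.0218). That call was lost without the second CT22 dark array (0.60, adjusted p = 0.174) or the second CT22 light array (0.67, adjusted p = 0.166). Set 3 gave 0.46 ± 0.21 (adjusted p = 0.290) and set 5 gave 0.87 ± 0.39 (adjusted p = 0.278). Set 4 lay the other way, with 21.1 and 10.5 in light against 24.5 and 13.3 in dark, and its difference of -0.28 ± 0.42 did not pass (adjusted p = 0.811). Those light and dark arrays overlapped. For the effect at CT22 minus that at CT14, 4 of the 5 sets passed with values of 2.20 to 2.36, and set 4 gave 1.38 ± 0.59 (adjusted p = 0.280). Of the 4, set 5 (adjusted p = 0.0492) kept its call in 2 of the 12 fits that left out 1 array, and sets 2, 3 and 5 lost theirs with the actin ratio as covariate (adjusted p of 0.061, 0.237 and 0.493). Over the 12 arrays the 5 sets correlated with each other at Pearson's r of 0.763 to 0.982, a description of probe sets that share a transcript.

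**Figure D2:**
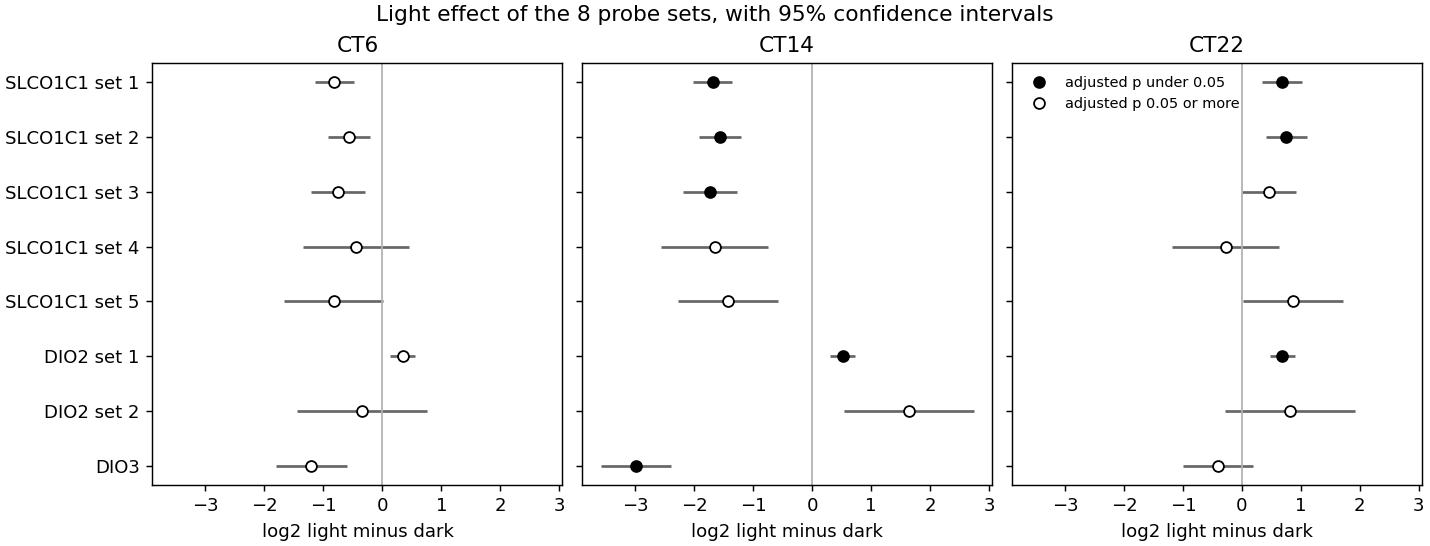
Light minus dark on the log2 scale (x axis) with 95% confidence intervals for the 8 probe sets at CT6, CT14 and CT22, in the order of their mean within each gene. Filled points passed an adjusted p of 0.05 in limma and open points did not. The 5 SLCO1C1 sets are all below 0 at CT14, where DIO3 gives -2.98, and 4 of the 5 are above 0 at CT22.

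The array's names for sets 1 to 3 mark probes that match more than 1 transcript. The gene annotated beside SLCO1C1 in the RefSeq table (assembly GRCg7b) is its paralog SLCO1B3, an organic anion carrier. A SLCO1B3 probe set of the same numbered cluster gave -1.31 ± 0.32 at CT14 (adjusted p = 0.0642) and 0.69 at CT22 (adjusted p = 0.3). It correlated with the SLCO1C1 sets at r of 0.701 to 0.910 over the 12 arrays. The other SLCO1B3 set of that cluster lay under the filter, with a mean log2 intensity of 1.45, and its r with the SLCO1C1 sets was -0.0579 to 0.0953. The share of signal that paralogs contribute to each set was not tested, so the family's values are uncertain to that extent.

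In the dark, SLCO1C1 was highest at CT14, and its level differed between times by the F test (adjusted p = 2.77e-05, where 6.43% of all tested passed). CT14 minus CT6 was 1.13 ± 0.16 (adjusted p = 0.00145) and CT22 minus CT14 was -1.92 ± 0.16 (adjusted p = 1.23e-05). CT22 minus CT6 was -0.78 ± 0.16 (adjusted p = 0.0299), and that call was lost without the second CT6 dark array (-0.47) or without either CT22 dark array. Of the 8 probe sets of the 3 genes, 5 were called higher at CT14 than at CT6 in the dark, where 1.34% of all tested were. Then 6 were called lower at CT22 than at CT14, where 3.27% were, and these were all 5 SLCO1C1 sets and DIO3. Sets 4 and 5 each lost this call without any 1 of the 4 arrays compared (adjusted p of 0.0512 to 0.235 and of 0.0539 to 0.0999). Among the calls at CT14 against CT6, set 3 lost its own without the first CT6 dark array (0.73, adjusted p = 0.0925) or the first CT14 dark array (1.14, adjusted p = 0.0637). Between CT22 and CT6 in the dark, 1 was called higher and 1 lower, against 0.603% and 0.503%.

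Between light glands the F test over times gave an adjusted p of 0.0457 for SLCO1C1, where 3.97% of all tested passed. In light glands CT22 minus CT6 was 0.71 ± 0.16 (adjusted p = 0.0250), a call lost without any 1 of the 4 arrays compared (0.67 to 0.75). CT22 minus CT14 was 0.45 ± 0.16 (adjusted p = 0.172) and CT14 minus CT6 was 0.26 ± 0.16 (adjusted p = 0.695). Among the 6 groups the mean levels ran from CT14 dark, highest, through CT6 dark, CT22 light, CT14 light and CT22 dark to CT6 light. CT6 dark and CT22 light overlapped, as did CT22 dark and CT6 light, so neighbours in those places were not separated. CT14 dark stood above all others.

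SLCO1C1 is known from endothelium and choroid plexus in mammals, so markers of both were set beside it. Of 9 choroid plexus and ependymal markers listed, 7 were on the array and 5 passed the filter. CLDN2, a tight junction protein of choroid epithelium, and OTOF lay under it, with mean log2 intensities of 1.04 and 1.69. TTR, a thyroid hormone carrier made by choroid epithelium, ranged from 7430 to 8126 in light glands and from 7329 to 8412 in dark glands. The sum of the 6 others was 3030 and 3017 in CT6 light, against 3046 and 3936 in CT6 dark. At CT14 it was 3963 and 3491 in light, against 5142.5 and 4314 in dark. At CT22 it was 3931 and 4823 in light, against 2708 and 3237 in dark. Light and dark were separate at CT14, light lower, and at CT22, light higher, as were 21.5% and 23.2% of single probe sets tested. Left out of that sum, TTR was the brightest of the 7, with a mean log2 intensity of 12.9. The sum of all 7 was 11403 and 11875 in CT14 light, against 12042 and 13555 in CT14 dark. At CT22 the sum of 7 was 12057 and 12253 in light, against 10037 and 10883 in dark.

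ENPP2, which encodes autotaxin, made up 73.9% to 81.6% of the sum without TTR on each array, so that sum is mostly this 1 gene. The 5 other genes summed to 812 and 913 in CT14 light, against 948 and 829 in CT14 dark, which overlap, and to 779.9 and 919.9 in CT22 light, against 568 and 667 in CT22 dark, which do not. At CT22, 3 of the 5 markers tested were called higher in light and 0 lower (3 at an unadjusted p under 0.05), where 1.73% and 1.92% of all tested were. These were FOLR1, a folate carrier protein (0.81 ± 0.17, adjusted p = 0.0175), KL, which encodes klotho (0.79 ± 0.19, adjusted p = 0.0423), and ENPP2 (0.58 ± 0.14, adjusted p = 0.0373). At CT14 their light effects of -0.36, -0.28 and -0.42 did not pass, against -1.69 for SLCO1C1. AQP1, the water channel of choroid epithelium, lay the other way at CT14 with 0.53 ± 0.13 (adjusted p = 0.0665), and it gave 0.41 at CT6 (adjusted p = 0.291) and -0.07 at CT22 (adjusted p = 0.846). In the dark, CT22 minus CT14 was -0.88 for FOLR1, -1.07 for KL and -0.70 for ENPP2, all past the threshold, against -1.92 for SLCO1C1. These were 3 of the 5 markers tested, where 3.27% of all tested were called lower. AQP1 gave 0.17 (adjusted p = 0.542) and TTR -0.11 (adjusted p = 0.373) in that comparison. The part of choroid plexus tissue in the SLCO1C1 result was not tested.

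The sum of endothelial and mural markers was flatter. The sum of their 15 genes, all tested, was 3619 and 3668 in CT6 light, against 3359 and 3484 in CT6 dark, in no order of replicates. At CT14 it lay at 3658 and 3753 in light, against 3555 and 3880 in dark, and at CT22 at 3272 and 3375 in light, against 3448 and 3510 in dark. Light was thus the higher group at CT6 and the lower at CT22, and the groups overlapped at CT14. Of single probe sets tested, 20.9% were separate and higher in light at CT6, and 24.7% separate and lower at CT22. RGS5 and SLC2A1 were the brightest of the 15, with mean log2 intensities of 9.94 and 9.22. CLDN5, a tight junction protein of brain vessels, was the 1 of 15 called at CT22 (0.66 ± 0.15, adjusted p = 0.0306). Of all tested, 1.73% were called higher and 1.92% lower at that time. CLDN5 gave -0.13 at CT6 and -0.42 at CT14, which did not pass. Of the 15 light effects, 9 were above 0 at CT6, 7 at CT14 and 5 at CT22. The part of vessels in the SLCO1C1 result was not tested. At CT6 and CT14, 0 of 15 were called in limma, with 4 and 2 at an unadjusted p under 0.05. Of all tested, 0.221% were called at CT6, and 1.14% higher and 0.529% lower at CT14. In the dark, CT14 minus CT6 was above 0 for 13 of the 15, with a median of 0.26 against 0.03 over all genes tested. SLC2A1 was the 1 called (0.36, adjusted p = 0.0291), where 1.34% of all tested were called higher. For CT22 minus CT14 in the dark, 6 were above 0, the median was -0.10 against -0.01, and 0 were called. CLDN5 gave -0.54 there (adjusted p = 0.0518).

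**Figure D3:**
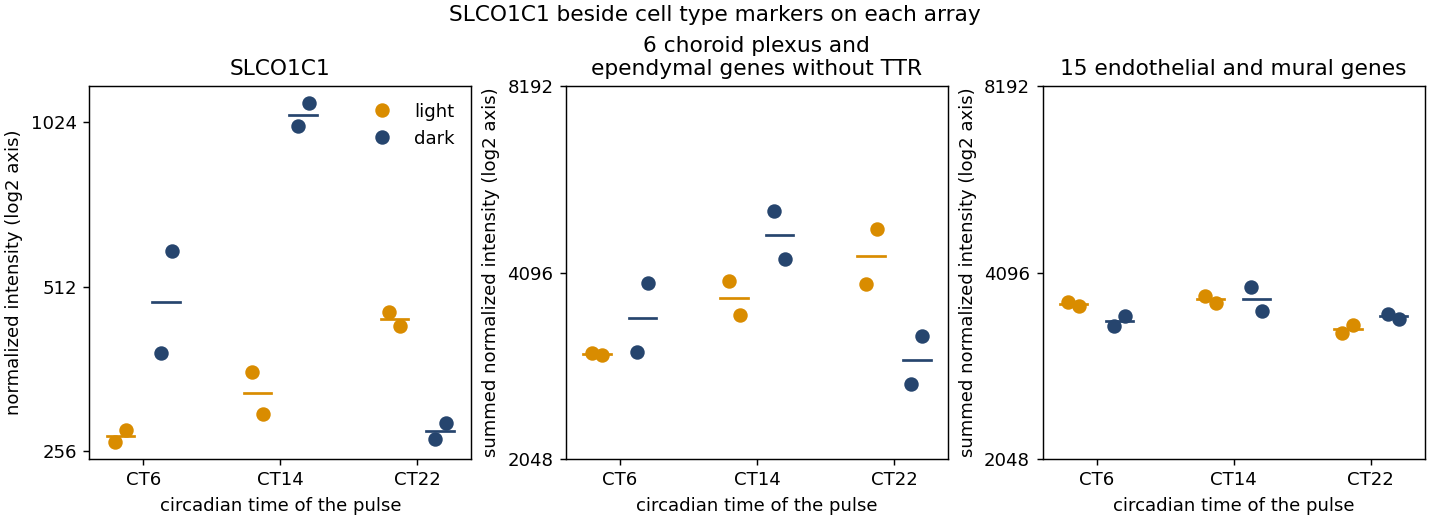
Normalized intensity of SLCO1C1 set 1, and the summed intensities of 6 choroid plexus and ependymal genes without TTR and of 15 endothelial and mural genes, on each array (log2 axes, with equal limits in the 2 marker panels). Orange points are light arrays and blue points dark arrays. The choroid plexus sum without TTR, 73.9% to 81.6% of it ENPP2, is lower in light at CT14 and higher in light at CT22. Its 5 other genes, summed, overlap at CT14. TTR gave light effects of -0.03 at CT14 and 0.05 at CT22, and AQP1 0.53 and -0.07. The endothelial sum stays between 3272 and 3880.

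DIO2, the activating enzyme, was called higher in light glands at CT14 and CT22 by its brighter probe set, and not at CT6. Set 1 had intensities of 851 and 781 in CT6 light glands, against 647 and 639 in CT6 dark glands. At CT14 it had 1489.5 and 1564 in light, against 999 and 1141 in dark. At CT22 it had 1531 and 1526 in light, against 857 and 1053 in dark. At every time both light arrays lay above both dark arrays.

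The light effect on DIO2 was 0.34 ± 0.10 at CT6 (adjusted p = 0.196), 0.52 ± 0.10 at CT14 (adjusted p = 0.0136) and 0.69 ± 0.10 at CT22 (adjusted p = 0.00150). The CT14 call was lost without the first CT14 dark array (0.42, adjusted p = 0.136) and without either CT14 light array (0.55 and 0.48, adjusted p = 0.0630 and 0.128). The CT22 call was kept without each of the 12 arrays, at 0.54 to 0.84. Averaged over the 3 times, a contrast added after the values were seen, the effect on set 1 was 0.52 ± 0.06 (adjusted p = 9.43e-05, where 3% of all tested passed). The same contrast gave 0.70 ± 0.29 for DIO2 set 2 (adjusted p = 0.261), -1.53 ± 0.16 for DIO3 (adjusted p = 7.5e-05) and -0.61 ± 0.09 for SLCO1C1 set 1 (adjusted p = 0.00158). The DIO3 effect differed between times (F test, adjusted p = 0.0161) and passed only at CT14, so its average does not describe each time. The SLCO1C1 average joins effects of opposite sign at CT14 and CT22, so it describes neither time. Its call was lost with the actin ratio as a covariate (-0.56, adjusted p = 0.124).

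No dependence of the DIO2 response on time was detected. The F test over the 3 times gave an adjusted p of 0.382, where 1.35% of all probe sets passed. The effect at CT22 minus that at CT6 was 0.34, with a 95% confidence interval of 0.05 to 0.63 and an adjusted p of 0.365. The interval for CT14 minus CT6 was -0.12 to 0.46, and that for CT22 minus CT14 was -0.12 to 0.46. Those intervals do not show that the responses are equal.

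DIO2 also varied with time of day. In the dark it was higher at CT14 than at CT6 by 0.73 ± 0.10 (adjusted p = 0.00103) and higher at CT22 than at CT6 by 0.56 ± 0.10 (adjusted p = 0.0121). The second call was lost without either CT6 dark array (0.57 and 0.55) or without the second CT22 dark array (0.41, adjusted p = 0.118). CT22 minus CT14 in the dark was -0.17 ± 0.10 (adjusted p = 0.369), and it turned to 0.16 on the deposited scale (adjusted p = 0.314). In light glands CT14 and CT22 both stood above CT6, by 0.90 ± 0.10 (adjusted p = 0.000419) and 0.91 ± 0.10 (adjusted p = 0.000164). Of the 8 probe sets, 1 was called higher in the first of these comparisons, where 0.382% of all tested were, and 4 in the second, where 1.30% were.

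The 6 groups ordered DIO2 from CT22 light and CT14 light, whose arrays overlapped, through CT14 dark and CT22 dark, which also overlapped, to CT6 light and CT6 dark. CT6 light glands, at 851 and 781, thus stayed under all arrays of the night groups, dark ones included. The lowest of those was 857, close to the higher CT6 light array.

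Set 2 of DIO2 was far dimmer and noisier. It had 34.1 and 29.01 in CT14 light glands, against 5.89 and 17.3 in CT14 dark glands, and 42.9 and 28.5 in CT22 light glands, against 19.0 and 20.8 in CT22 dark glands. The light effects of 1.64 ± 0.51 (adjusted p = 0.145) and 0.82 ± 0.51 (adjusted p = 0.472) did not pass. At CT6 it had 10.5 and 13.4 in light, against 22.4 and 10.1 in dark, a difference of -0.34 ± 0.51 (adjusted p = 0.876) with overlapping arrays. The 2 sets correlated at r of 0.636 over the 12 arrays.

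DIO3, the inactivating enzyme, is reported by 1 probe set. It had intensities of 38.7 and 34.1 in CT6 light glands, against 72.4 and 96.5 in CT6 dark glands. At CT14 it had 40.6 and 30.1 in light, against 333 and 229 in dark. At CT22 it had 87.8 and 105.7 in light, against 92.9 and 175 in dark. Light and dark arrays were separate at CT6 and CT14 and overlapped at CT22.

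The light effect on DIO3 was -2.98 ± 0.28 at CT14 (adjusted p = 4.80e-05), which stood 2nd from the lowest among 23063 probe sets at that time. The fold of 7.91 has a 95% confidence interval that leaves light glands with 0.0835 to 0.191 of the dark level. At CT6 the effect was -1.20 ± 0.28 (adjusted p = 0.106), and at CT22 it was -0.41 ± 0.28 (adjusted p = 0.524), with a 95% confidence interval of -1.003 to 0.193. The CT14 call was kept without each of the 12 arrays, with values of -3.25 to -2.71. At CT22 the value turned to 0.05 without the second CT22 dark array, the higher of its group.

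When this actin ratio entered the fit as a covariate, the CT14 light effect of DIO3 was -1.81 ± 0.44 (adjusted p = 0.308), that of SLCO1C1 was -1.56 ± 0.32 (adjusted p = 0.167) and that of DIO2 was 0.44 ± 0.20 (adjusted p = 0.794). All 3 calls were lost in that fit, in which 18 probe sets passed at CT14, against 386 without the covariate. The ratio was low on both CT14 light arrays, so ratio and light are partly confounded at CT14.

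The response of DIO3 differed between times (F test, adjusted p = 0.0161) and was smaller at CT22 than at CT14. The effect at CT22 minus that at CT14 was 2.58 ± 0.39 (adjusted p = 0.00675), and it was kept without each of the 12 arrays, at 2.12 to 3.04. With the actin covariate it was 1.63 (adjusted p = 0.370). The effect at CT14 minus that at CT6 was -1.78 ± 0.39 (adjusted p = 0.133) and the effect at CT22 minus that at CT6 was 0.80 ± 0.39 (adjusted p = 0.485).

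In the dark, DIO3 was higher at CT14 than at CT6 by 1.72 ± 0.28 (adjusted p = 0.00398) and lower at CT22 than at CT14, by -1.11 ± 0.28 (adjusted p = 0.0297). The first call was lost without the first CT6 dark array (1.52, adjusted p = 0.0539) or the first CT14 dark array (1.45, adjusted p = 0.0519). The second was lost without the first CT14 dark array (-0.84, adjusted p = 0.221) or the first CT22 dark array (-0.66, adjusted p = 0.303). CT22 minus CT6 in the dark was 0.61 ± 0.28 (adjusted p = 0.425).

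Among light glands, CT14 minus CT6 was -0.06 for DIO3, with a 95% confidence interval of -0.65 to 0.54, and it turned to 0.86 with the actin covariate (adjusted p = 0.582). DIO3 was higher at CT22 than at CT6 by 1.41 ± 0.28 (adjusted p = 0.0141) and higher at CT22 than at CT14 by 1.46 ± 0.28 (adjusted p = 0.00849). The comparison with CT6 was lost without either CT6 light array or without the second CT22 light array (1.27, 1.32 and 1.498). That with CT14 was lost without the second CT14 light array (1.25) or the second CT22 light array (1.33). DIO3 was the 1 of 8 probe sets called higher in CT22 light than in CT14 light, where 1.24% of all tested were. In order of level, CT14 dark was highest, CT22 dark, CT22 light and CT6 dark overlapped with their neighbours, and CT6 light and CT14 light, which overlapped, were lowest.

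The 2 deiodinases were also set against each other within each array. A ratio within an array shows unequal change, and the probe sets' own levels are not comparable. The log2 difference of DIO2 minus DIO3 was 4.46 and 4.52 in CT6 light glands, against 3.16 and 2.73 in CT6 dark glands. At CT14 it was 5.20 and 5.70 in light, against 1.58 and 2.32 in dark. At CT22 it was 4.12 and 3.85 in light, against 3.21 and 2.59 in dark. Light minus dark of this difference was 1.55, 3.499 and 1.09 at CT6, CT14 and CT22, with the light arrays above the dark arrays each time. Of single probe sets tested, 20.9%, 22.1% and 23.2% were separate and higher in light at those times. The values follow from those of DIO2 and DIO3 given above, of which neither passed at CT6 and DIO3 did not pass at CT22. No test was run on this difference.

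DIO1, a deiodinase of the liver and kidney that can act on either ring, gave -0.11 ± 0.31, -0.67 ± 0.31 and -0.58 ± 0.31 and did not pass at any time (adjusted p of 0.944, 0.356 and 0.382). Beside the 3 genes, the list of thyroid hormone genes held 55 others, of which 41 were on the array and 33 passed the filter. In the limma fit 0 of 33 were called at CT6 and at CT14, with 2 and 9 at an unadjusted p under 0.05. Of all probe sets tested, 0.221% were called at CT6, and 1.14% higher and 0.529% lower at CT14. At CT22, 2 of the 33 were called higher and 5 lower, 21.2% of them against 3.64% of all probe sets tested. The 33 are genes with 1 probe set each, the brightest, and a share over genes was not counted. The list's median light effect was -0.02, -0.03 and -0.14 at CT6, CT14 and CT22, against 0.01, -0.02 and -0.00 over all genes tested.

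Both genes called higher at CT22 were organic anion carriers of the SLCO1 family. SLCO1A2 rose by 1.02 ± 0.13 (adjusted p = 0.000861) and SLCO1B1 by 0.89 ± 0.13 (adjusted p = 0.00251). Neither passed at CT14, where they gave -0.31 and -0.39. In the dark both were lower at CT22 than at CT14, SLCO1A2 by -1.13 (adjusted p = 0.000192) and SLCO1B1 by -0.98 (adjusted p = 0.000616). They are paralogs of SLCO1C1, and the share of signal from other family members was not tested for them either.

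SLC7A5, the large neutral amino acid carrier that also moves T3 and T4, fell by 0.65 on the log2 scale at CT22 (SE 0.14, adjusted p = 0.0194). SLC16A10, an aromatic amino acid and T3 carrier, gave -0.33 ± 0.11 (adjusted p = 0.141). SLCO4A1, SLCO2B1 and SLCO3A1 did not pass at any time, with values between -0.36 and 0.39. Of 7 carriers tested, 2 were thus called higher and 1 lower at CT22, where 1.73% and 1.92% of all probe sets tested were.

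On the binding side, TTR gave 0.05 ± 0.06 at CT22 (adjusted p = 0.737) and CRYM, a cytosolic T3-binding protein, 0.36 ± 0.21 (adjusted p = 0.438). The thyroid hormone receptors THRA and THRB lay under the filter, with mean log2 intensities of 1.91 and 3.49, as did RXRA with 3.37. RXRG, a retinoid X receptor that pairs with them, fell by 0.51 on the log2 scale at CT22 (SE 0.10, adjusted p = 0.0140). Among 7 coregulators, TBL1XR1, a subunit of the corepressor complex of NCOR1, fell by 0.50 on the log2 scale at CT22 (SE 0.10, adjusted p = 0.0129). The coactivator gene NCOA1 was lower at CT14 than at CT6 in the dark, by -1.004 (adjusted p = 0.0186), the 1 of the 33 list genes called there. For CT22 minus CT14 in the dark, 2 of the 33 were called higher and 2 lower, where 3.27% of all tested were called lower. For CT22 minus CT6, 1 was called higher, USP33 (0.47), and 1 lower, SLCO1A2 (-1.01), against 0.603% and 0.503%. The shares of all tested lower at CT14 than CT6 and higher at CT22 than CT14 are not given here.

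Of 4 target genes tested, MBP, a myelin protein gene that T3 raises in rodents, fell by 0.65 on the log2 scale at CT22 (SE 0.15, adjusted p = 0.0294). ATP2A2, a calcium pump gene that T3 raises in rodent heart, was higher at CT22 than at CT14 in the dark by 0.39 (adjusted p = 0.0129). KLF9, a direct receptor target in mammals and frogs, gave 0.10 ± 0.09, 0.22 ± 0.09 and -0.14 ± 0.09 at CT6, CT14 and CT22 and did not pass. The glands were taken at the end of the 1 h pulse. WSB1, part of the ubiquitin ligase that marks DIO2 protein for degradation, fell by 0.33 on the log2 scale at CT22 (SE 0.07, adjusted p = 0.0220). USP33, which removes ubiquitin from DIO2, gave -0.29 ± 0.10 (adjusted p = 0.136), and in the dark it was higher at CT22 than at CT14 by 0.48 (adjusted p = 0.00960).

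No gene of selenoprotein synthesis, which both deiodinases need for their selenocysteine, was called at any time among the 3 tested in the limma fit, with 0, 1 and 0 at an unadjusted p under 0.05 at CT6, CT14 and CT22. SECISBP2 gave 0.17, 0.16 and 0.03, EEFSEC -0.10, -0.29 and -0.15, and SEPHS1 0.05, -0.20 and 0.04. Thyrotropin subunits TSHB and CGA, which drive DIO2 in the hypothalamus of long-day quail, lay under the filter with mean log2 intensities of 2.00 and 0.91. TSHR, their receptor, gave -0.07, -0.05 and 0.02, and EYA3, a coactivator of TSHB, gave -0.08, -0.01 and 0.05, none past the threshold.

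**Figure D4:**
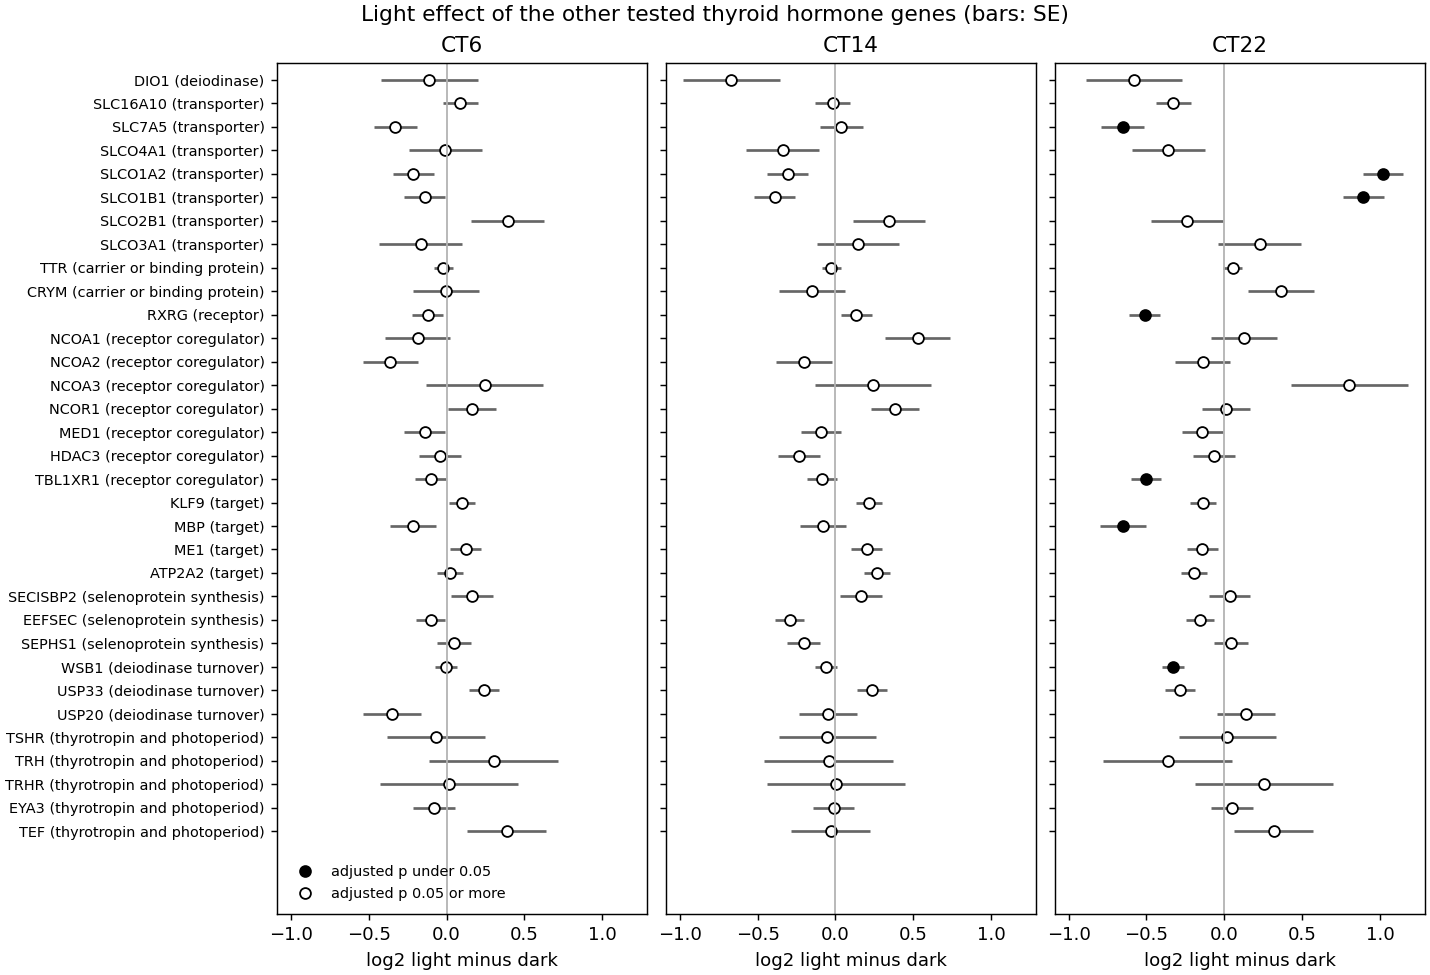
Light minus dark on the log2 scale (x axis, bars are SE) for the 33 other thyroid hormone genes tested, by role, at CT6, CT14 and CT22. Filled points passed an adjusted p of 0.05 in limma. No point is filled at CT6 or CT14, and 7 are at CT22, SLCO1A2 and SLCO1B1 above 0 and SLC7A5, RXRG, TBL1XR1, MBP and WSB1 below it.

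The genes whose levels followed each member most closely were named by Pearson's r of log2 values over the 12 arrays, among 10402 genes. Arrays of one group share their treatment, so r is a description. The same arrays gave the light effects of the genes named, so a direction shared with the member was largely set by the choice. Between the members, r was 0.741 for DIO3 and SLCO1C1, 0.0357 for DIO2 and SLCO1C1 and -0.0465 for DIO2 and DIO3. For SLCO1C1 these were NTL (0.937), SFXN1 (0.926), SPAG16 (0.920) and NDFIP2 (0.919). NTL gave -0.87 at CT14 (adjusted p = 0.0148) and SFXN1, a mitochondrial serine carrier, -0.46 (adjusted p = 0.0357). For DIO3 they were FGFR2 (0.913), a fibroblast growth factor receptor, METAP2 (0.911), FAM150B (0.884) and CHMP4B (0.876). FGFR2 gave -1.06 at CT14 (adjusted p = 0.00391) and FAM150B -1.04 (adjusted p = 0.0244). For DIO2 they were PRELID3B (0.921), SRSF7 (0.911), IFNGR2 (0.911) and PHF5A (0.900), none of which passed in a light comparison.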

How the data were processed

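Pineal glands of male chicks were measured on 12 Affymetrix arrays, 1 biological sample of 6 pooled glands each, in 6 groups of 2 taken from the labels. The authors deposited 1 linear intensity per probe set and array. Neither the summary software nor its scaling or genome build is given in the sources used here. Deposited medians differed by 0.53 on the log2 scale, over a tolerance of 0.2, so the whole table was quantile normalized on that scale. Control probe sets (96) were then left out, values under 1 were set to 1 (6.2% of deposited values lay there), and log2 was taken. A shift shared by most probe sets is removed by this step. Tests ran on probe sets whose mean exceeded the 40th percentile. Genes were named from the supplied platform annotation, and no probe set with several genes was used.

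limma 3.58.1 in R 4.3.3 fitted 6 group means to all 12 arrays (6 residual and 7.28 prior degrees of freedom, variance trend), with Benjamini-Hochberg adjustment over 23063 probe sets. Tests were light minus dark at each time, differences of these, and times within dark and within light groups. Named were all 8 probe sets, the set with the highest mean standing for its gene, list genes past the threshold, receptors and TTR in any case, and the 4 most alike genes per member. The members and lists were chosen with earlier results of these data known. On simulated CT14 data over 23063 probe sets the fit recovered 19 of 67 planted changes of 0.6, 41 of 67 of 1 and 57 of 66 of 2 (log2), with 6 false calls. Alternatives were other scalings, filters, a constant of 16 added before log2, variance models, a replicate block, the actin ratio, 4 arrays alone and each array left out. Gene neighbours came from the RefSeq table, and no coordinates or sequences are printed.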

Additional observations from a re-analysis of the deposited data

Results flagged for a closer look

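For DIO3 and 4 of the 5 SLCO1C1 probe sets, the light effect differed between times when the difference itself was tested in limma. The effect at CT22 minus that at CT14 was 2.58 for DIO3 (adjusted p = 0.00675). It was 2.36 for SLCO1C1 set 1 (adjusted p = 0.000288), 2.32 for set 2 (adjusted p = 0.000455), 2.20 for set 3 (adjusted p = 0.00356) and 2.30 for set 5 (adjusted p = 0.0492). The effect at CT22 minus that at CT6 was 1.49 for set 1 (adjusted p = 0.0139) and 1.32 for set 2 (adjusted p = 0.0352). Of all probe sets tested, 2.26% passed the comparison of CT22 with CT14 and 0.247% that of CT22 with CT6. The set 5 value lost its call with the replicate block (adjusted p = 0.064) and in 10 of 12 fits without 1 array, and the set 2 value at CT22 minus CT6 with the block (adjusted p = 0.0553) and in 6 of 12. With the actin covariate in limma, CT22 minus CT14 was lost by DIO3 (1.63, adjusted p = 0.370). It was also lost by sets 2, 3 and 5 (adjusted p of 0.061, 0.237 and 0.493). Without a variance trend it was lost by DIO3 and sets 3 and 5 (adjusted p of 0.1, 0.0849 and 0.0941). Set 1 at CT22 minus CT6 was lost without a trend (adjusted p = 0.235) and with no filter (adjusted p = 0.0994). The SLCO1C1 sets share a transcript and are not separate observations. With 2 arrays per group no array could be tested as standing apart from its group.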

How the results depend on the processing

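The 36 tests on the leading probe sets were recomputed 765 times in all, and 686 values kept direction and side of the threshold. With 2 arrays per group, a left-out array leaves its group with 1, assumed to vary like the others. Dim probe sets near the filter limit are limited by signal. The replicate numbers did not pair the samples (15 pairs of groups, correlations of -0.03 to 0.03), and with the replicate block no call of the 36 changed (DIO3 at CT14 -2.98, adjusted p = 0.000136). Of the other probe sets, SLCO1C1 set 2 lost effect CT22 minus CT6 (1.32, adjusted p = 0.0553) and set 5 effect CT22 minus CT14 (2.30, adjusted p = 0.064) with the block.

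Without a variance trend, these calls were lost at unchanged values: DIO2 at CT14 (0.52) and CT22 (0.69), dark CT14 minus CT6 (0.73), dark CT22 minus CT6 (0.56) and light CT14 minus CT6 (0.90), DIO3 in dark CT14 minus CT6 (1.72), dark CT22 minus CT14 (-1.11), light CT22 minus CT14 (1.46), light CT22 minus CT6 (1.41) and effect CT22 minus CT14 (2.58), and SLCO1C1 in dark CT14 minus CT6 (1.13), dark CT22 minus CT6 (-0.78), light CT22 minus CT6 (0.71), effect CT22 minus CT6 (1.49) and at CT22 (0.68). Without a filter, which raises the number of probe sets adjusted over, lost were DIO2 at CT14 (0.52) and dark CT22 minus CT6 (0.56), DIO3 in dark CT22 minus CT14 (-1.11) and light CT22 minus CT6 (1.41), and SLCO1C1 in dark CT22 minus CT6 (-0.78), light CT22 minus CT6 (0.71), effect CT22 minus CT6 (1.49) and at CT22 (0.68).

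With the actin ratio as a covariate, lost were DIO2 at CT14 (0.44) and light CT14 minus CT6 (0.85), DIO3 at CT14 (-1.81), dark CT22 minus CT14 (-0.86), light CT22 minus CT14 (0.77) and effect CT22 minus CT14 (1.63), and SLCO1C1 at CT14 (-1.56). DIO3 at CT6 passed (-1.19), and light CT14 minus CT6 turned to 0.86. As deposited, DIO2 turned in dark CT22 minus CT14 (0.16) and effect CT22 minus CT14 (-0.0198), SLCO1C1 lost dark CT22 minus CT6 (-0.46) and CT22 (0.59), and DIO3 dark CT22 minus CT6 passed (0.88). Median centring passed DIO2 at CT6 (0.51) and lost SLCO1C1 dark CT22 minus CT6 (-0.67). SLCO1C1 at CT6 passed with the 60th percentile filter (-0.81) and with 16 added (-0.78). The cause was not tested.

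Leaving out each array gave these ranges where a call or sign changed. For DIO2 they were 0.41 to 0.71 (dark CT22 minus CT6), -0.0335 to 0.0373 (light CT22 minus CT14, turned also at -0.000803) and 0.42 to 0.61 (CT14). For DIO3 they were 1.45 to 2.00 (dark CT14 minus CT6), -1.57 to -0.66 (dark CT22 minus CT14), -0.27 to 0.16 (light CT14 minus CT6, turned at 0.03 and 0.16), 1.25 to 1.68 (light CT22 minus CT14), 1.27 to 1.54 (light CT22 minus CT6) and -0.86 to 0.0534 (CT22). For SLCO1C1 they were -1.09 to -0.47 (dark CT22 minus CT6), 0.32 to 0.57 (light CT22 minus CT14), 0.67 to 0.75 (light CT22 minus CT6), -1.18 to -0.56 (effect CT14 minus CT6), 1.18 to 1.80 (effect CT22 minus CT6), 0.63 to 0.73 (CT22) and -1.12 to -0.50 (CT6).

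The probe sets that do not lead their gene changed as well. Signs turned for the dim DIO2 set 2 and SLCO1C1 set 4. Calls were also lost by SLCO1C1 sets 2 and 3, which are not dim (mean log2 intensities of 8.64 and 6.99). Without 1 array, DIO2 set 2 ranged from -1.35 to 0.20 (dark CT14 minus CT6), -0.18 to 0.97 (dark CT22 minus CT6) and -0.92 to 0.23 (CT6). It gave -0.15, 0.92, -0.52 and -0.16 with the actin covariate (effect CT14 minus CT6, effect CT22 minus CT14, CT14, mean over times). SLCO1C1 set 2 at CT22 lost its call as deposited (0.66), with no filter and without a variance trend (0.76), its effect CT22 minus CT6 as deposited (1.15), with no filter, without a trend and with the robust variance model (1.32), and set 5 its effect CT22 minus CT14 as deposited (2.10), with no filter and without a trend (2.30). Set 3 lost effect CT22 minus CT14 (2.20) and dark CT14 minus CT6 (1.13) without a trend. Sets 2 and 3 lost their calls at CT14 with the actin covariate (-1.14 and -1.51). Set 4 lost dark CT22 minus CT14 with no filter, without a trend (-1.62) and with the actin covariate (-1.59). SLCO1C1 set 4 gave -0.16, -0.27 and -0.33 (effect CT22 minus CT6) and 0.17 and 0.23 (CT22) without 1 array.

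Probe sets passing at CT6, 51, numbered 26 as deposited, 237 median-centred, 20 with no filter, 98 with the 60th percentile filter, 9 without the trend, 20 from 4 arrays alone and 19 to 50 without 1 array. At CT14, 386 became 212 with no filter, 105 without the trend, 18 with the actin covariate and 160 to 421 without 1 array. At CT22, 840 became 509 as deposited, 426 with no filter, 162 without the trend and 234 to 833 without 1 array.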
